A study of Rattus norvegicus with 6 samples.

Results

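Sost, Ackr3 and Irx5 are 3 genes grouped here as associated with osteocytes, and they were followed in a rat bone cell line treated with a protease inhibitor. They were read from every probe set, the group of short oligonucleotides that stands for a transcript on the array, whose platform annotation gave exactly 1 gene symbol equal to one of these names. The 3 genes, of 14217 named by such probe sets, were read by 5 of the 31099 probe sets on the array: 2 for Sost, 1 for Ackr3 and 2 for Irx5. The 3 genes were chosen by their signals, which had already been seen to be lower with the inhibitor in these same arrays, so their difference between the groups is given as a description, and no p-value is read from it.

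The cells were UMR106-01, an osteosarcoma line with properties of osteoblasts, the cells that build bone matrix. All cultures were seeded at 100000 cells per cm2 with serum at 10%, and at 64 h the medium was changed for one that held 6.5 mM beta-glycerol phosphate, a phosphate donor for mineral. In 3 cultures (AEBSF) the new medium also held 400 µM AEBSF, a compound that blocks serine proteases irreversibly, and in 3 cultures (mineralizing) it did not. RNA was taken at 76 h, after 12 h of treatment, and each culture gave 1 Affymetrix array of MAS5 signals. Every culture is of 1 tumour line and received the phosphate donor, and cultures without it were not analysed here. Signals are on a linear scale that was set to the same overall level on every array, so a value says how bright a transcript was relative to the rest of that array.

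Osteocytes are former osteoblasts that lie buried in bone and sense load and phosphate. Sost encodes sclerostin, a secreted protein of mature osteocytes that binds the Wnt co-receptors Lrp5, Lrp6 and Lrp4 and so restrains bone formation. Ackr3, formerly named Cxcr7, encodes an atypical chemokine receptor that binds Cxcl12 and Cxcl11, signals through beta-arrestin instead of G proteins, and removes its ligands from the surroundings of the cell. Irx5 encodes a homeobox transcription factor of the Iroquois family that takes part in patterning of the limb, face and heart. In the RefSeq annotation of the rat assembly GRCr8, Sost lies on chromosome 10 at bases 87412722 to 87415766, Ackr3 on chromosome 9 at bases 98247300 to 98258877 and Irx5 on chromosome 19 at bases 30812033 to 30816885.

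The promoters of Sost and Ackr3 are shown, and that of Irx5 is not, to let a reader see whether the letters ahead of 2 genes that were both lower with AEBSF are alike. The sequences are from RefSeq (GRCr8), each 5′ to 3′ on the gene's own strand and ending just before the first annotated base of the gene. The Sost sequence is chr10:87415767-87416016 on the minus strand and the Ackr3 sequence is chr9:98247104-98247299 on the plus strand. Capitals mark matches to the motifs named after them and the longest run of letters that both hold.
Sost: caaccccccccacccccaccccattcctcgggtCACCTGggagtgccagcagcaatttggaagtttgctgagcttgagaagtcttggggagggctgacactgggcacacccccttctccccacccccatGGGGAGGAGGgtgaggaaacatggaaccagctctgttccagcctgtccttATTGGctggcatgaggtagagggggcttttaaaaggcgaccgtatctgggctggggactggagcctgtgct
Ackr3: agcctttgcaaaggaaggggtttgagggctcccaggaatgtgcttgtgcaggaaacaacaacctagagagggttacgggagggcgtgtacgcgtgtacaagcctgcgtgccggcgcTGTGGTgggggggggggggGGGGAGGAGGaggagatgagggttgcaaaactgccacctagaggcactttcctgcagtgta

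Motifs were searched on both strands in the 250 bases before the transcription start that the RefSeq table uses, with positions counted from that start. For Ackr3 this start lies 54 bases inside the annotated gene, so its last 54 searched bases are not shown. Sost held a CCAAT box (CCAAT, on the opposite strand) at -71 to -67 and an E-box (CANNTG) at -217 to -212. Ackr3 held a TATA box (TATAAA) at -54 to -49, an E-box at -21 to -16 and the core of a RUNX site (TGTGGT) at -134 to -129. The TATA box and E-box of Ackr3 lie in the 54 bases inside the annotated gene, so they are not shown. Of 33469 promoters of the same length, 34.0% held CCAAT, 65.5% held CANNTG, 12.9% held TATAAA and 14.5% held TGTGGT. No match to the cyclic AMP response element TGACGTCA was found in either window, and 1.59% of all promoters held it. The longest run common to both was GGGGAGGAGG, 10 letters of purines, which 0.648% of all promoters held on the gene's strand. Guanine and cytosine made up 60.4% of the Sost window and 58.0% of the Ackr3 window, against a median of 51.2% over all promoters. No motif other than the E-box was therefore found in both windows, and the Ackr3 E-box lies inside the annotated gene. The matches are a description of the letters only.

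Sost was read brightly by 1 of its probe sets, 1368969_at. Its signal was 337, 296 and 309 in AEBSF cultures 1, 2 and 3, against 541, 418 and 437 in mineralizing cultures 1, 2 and 3. The groups did not overlap: all AEBSF cultures lay below all mineralizing cultures, and mineralizing culture 1 stood above its fellows. The mean was 314 ± 20.9 with AEBSF and 465 ± 66.5 in mineralizing cultures (SD, n = 3 each), a 1.47-fold lower level with AEBSF (log2 fold change -0.56, SE 0.12). As shares of the mineralizing mean, the 3 AEBSF cultures held 72.4%, 63.6% and 66.5%. In bulk RNA, fewer cells that express a gene and less of its RNA per cell cannot be told apart.

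Ackr3 has 1 probe set, 1367940_at, and its cultures lay closest together. Its signal was 403, 389 and 448 in AEBSF cultures 1, 2 and 3, against 675, 640 and 633 in mineralizing cultures 1, 2 and 3. The lowest mineralizing culture was 1.41 times the highest AEBSF culture, so the groups stood well apart. The mean was 413 ± 30.8 with AEBSF and 649 ± 22.8 in mineralizing cultures (SD, n = 3 each), which is 1.57-fold lower with AEBSF (log2 fold change -0.65, SE 0.09). No second probe set had Ackr3 as its only symbol, so agreement could not be looked at; probe sets with several symbols or none were not used.

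Irx5 is described by its brightest probe set, 1386823_at, which varied most between cultures among the brightest probe sets of the 3 genes. The signal was 260, 201 and 226 in AEBSF cultures 1, 2 and 3, against 307, 294 and 462 in mineralizing cultures 1, 2 and 3. The groups did not overlap, but the lowest mineralizing culture was only 1.13 times the highest AEBSF culture, and mineralizing culture 3 lay far above the other two. The mean was 229 ± 29.9 with AEBSF and 354 ± 93.4 in mineralizing cultures (SD, n = 3 each), 1.52-fold lower with AEBSF (log2 fold change -0.61, SE 0.17). Without mineralizing culture 3 the log2 fold change was -0.40.

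**Figure D1:**
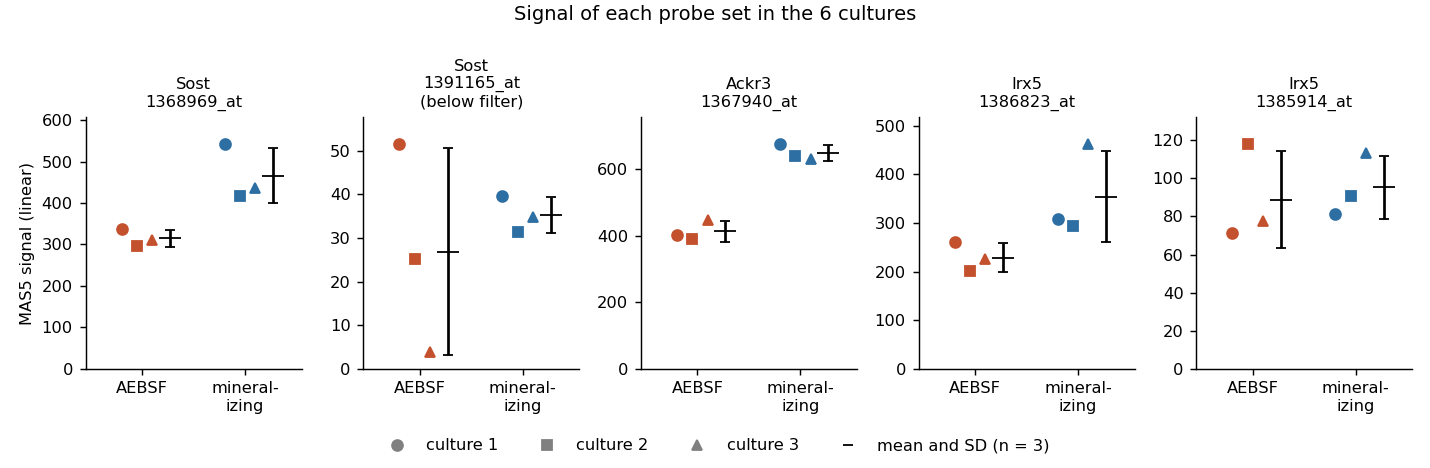
MAS5 signal (linear axis from 0, a separate scale in each panel) of the 5 probe sets in the 3 AEBSF and 3 mineralizing cultures, with symbols for the culture number and bars for the mean and SD. Sost 1368969_at, Ackr3 1367940_at and Irx5 1386823_at lie lower in all AEBSF cultures than in any mineralizing culture, while the groups overlap in the dimmer second probe sets of Sost and Irx5.

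The second probe sets did not repeat this separation. For Sost, probe set 1391165_at gave 51.5, 25.3 and 3.91 in AEBSF cultures 1, 2 and 3, against 39.7, 31.3 and 34.9 in mineralizing cultures 1, 2 and 3. The AEBSF cultures lay on both sides of the mineralizing ones, from the highest to the lowest of all 6. This probe set lay below the filter on low signals, a signal of 67.2, and its mean signal stood at the 23.2 percentile of all probe sets. Its log2 fold change of -1.03 rested on AEBSF culture 3, and without that culture it was 0.04.

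For Irx5, probe set 1385914_at gave 71.2, 118 and 77.4 in AEBSF cultures 1, 2 and 3, against 81.5, 90.7 and 114 in mineralizing cultures 1, 2 and 3. The groups overlapped, with AEBSF culture 2 the highest of all 6. Its mean was 88.8 ± 25.4 with AEBSF and 95.3 ± 16.5 in mineralizing cultures (SD, n = 3 each; log2 fold change -0.12, SE 0.25), and its mean signal stood at the 44.7 percentile. Of the 2 genes with several probe sets, neither therefore had a second probe set whose groups stood apart. Signals of different probe sets cannot be set against each other as levels, and the difference between the probe sets of a gene was not tested.

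The spread between cultures of one group differed between the genes. On the log2 scale the within-group SD was 0.08 for Ackr3, 0.16 for Sost and 0.29 for Irx5 in their brightest probe sets. Among probe sets within 0.25 log2 units of the same mean signal, the median SD was 0.12, 0.14 and 0.16 beside Ackr3, Sost and Irx5. Of those probe sets, 23.7% varied less than Ackr3, 62.3% less than Sost and 93.5% less than Irx5. Irx5 1386823_at was thus among the more variable probe sets of its brightness.

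Of the 5 probe sets, 4 passed the filter and entered the limma fit over 18625 probe sets. Of these 4, 3 lay under an adjusted p of 0.05, the brightest of each gene. In 16 alternative fits (other scalings, constants, filters, variance priors, a replicate block or 1 array left out), Ackr3 stayed under it in 16. Sost did so in 14, and not without mineralizing culture 1 or with a constant variance prior. Irx5 did so in 10, and not in the other 6. In the whole fit 13.4% of probe sets passed: 7.41% as lower with AEBSF, 1380 in all, and 5.99% as higher, 1115 in all. The groups did not overlap, with AEBSF lower, in 16.5% of all tested probe sets. The 3 genes were chosen from this same contrast, so nothing is read from their count. For the brightest probe sets, the share of tested probe sets with a more negative log2 fold change was 1.6% (Ackr3), 2.04% (Irx5) and 2.83% (Sost). For the second Irx5 probe set it was 28.1%. The genes were chosen for lower signals, so these ranks are a description only. When the arrays were scaled to their hybridization controls, the median over all genes moved to a log2 fold change of -0.144, against 0.002 in the values as deposited, and 119 probe sets passed as higher and 2457 as lower. This scaling shifts every gene alike, and the values of Sost, Ackr3 and Irx5 became -0.71, -0.80 and -0.75.

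**Figure D2:**
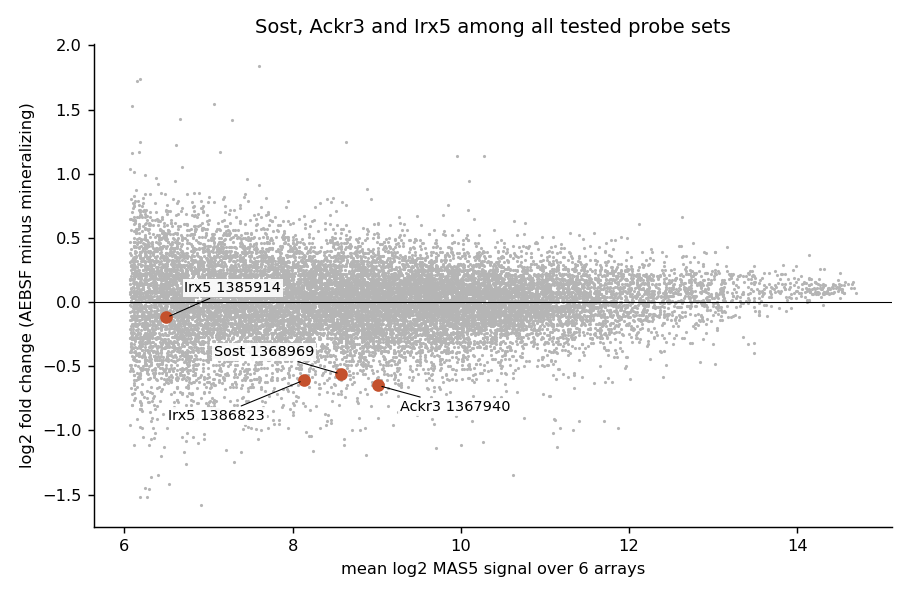
Log2 fold change (AEBSF minus mineralizing) against mean log2 signal over the 6 arrays for the 18625 tested probe sets (grey) and the 4 tested probe sets of Sost, Ackr3 and Irx5 (orange). The brightest probe sets of the 3 genes lie together near -0.6, and the second Irx5 probe set lies at -0.12.

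The 3 genes were similar in the size of their difference, but the culture highest in its group was not the same for all 3. Over the 6 arrays the log2 signals of Sost and Ackr3 had a Pearson correlation of 0.92, Ackr3 and Irx5 of 0.76, and Sost and Irx5 of 0.72. These values contain the difference between the groups that all 3 share by choice. After each group's mean was taken away, the correlations of what was left were 0.39, -0.14 and -0.02. With 6 arrays such values are too imprecise to tell whether the genes vary together. The culture highest in its group was mineralizing culture 1 for Sost and Ackr3 and mineralizing culture 3 for Irx5, and with AEBSF it was culture 1 for Sost and Irx5 and culture 3 for Ackr3.

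Other genes with the most similar pattern were found by the root mean square difference between centred log2 signals over the 6 arrays, among 9863 genes. Nearest to Sost were Dach1, a transcriptional cofactor (0.0544), Xpa, a protein of nucleotide excision repair (0.0571), Glrb, a subunit of the glycine receptor (0.0676), and Txndc16 (0.073). Nearest to Ackr3 were LOC100910319 (0.0448), Rnft1, a ubiquitin ligase of the endoplasmic reticulum (0.046), the ETS factor gene Elk3 (0.049) and Adamtsl1, a secreted protein related to the ADAMTS proteases (0.0505). Nearest to Irx5 were Pdk2, a kinase that inhibits pyruvate dehydrogenase (0.051), Ephx2, the soluble epoxide hydrolase (0.0936), Qpct, glutaminyl cyclase (0.0977), and Kctd14 (0.135). The genes near Irx5 shared the high signal of mineralizing culture 3: Pdk2 gave 155, 107 and 130 in AEBSF cultures 1, 2 and 3, against 171, 163 and 259 in mineralizing cultures 1, 2 and 3. These genes were picked over the same 6 arrays, so sharing a high culture follows from the choice. None of the 3 genes appeared among the nearest 4 of another. With only 4 kept of 9863 genes, that absence says little about how alike the 3 are.

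The receptors of sclerostin and other secreted Wnt antagonists did not pass the test. Of 16 such genes 14 had a probe set, 8 lay below the filter and 6 were tested, and 0 had a limma adjusted p under 0.05, with 1 at an unadjusted p under 0.05. Over all 9864 tested genes, 9.22% passed as lower and 7.09% as higher. The share of all genes at an unadjusted p under 0.05 was not worked out, so nothing is read from that count. Lrp4, a receptor that anchors sclerostin, had signals of 1832 ± 125 with AEBSF and 1903 ± 62.9 in mineralizing cultures (log2 fold change -0.06 with an SE of 0.06 and limma adjusted p = 0.609). The co-receptor Lrp6 had 557 ± 59.1 with AEBSF and 546 ± 38.1 without (limma adjusted p = 0.888), and Lrp5 had 150 ± 33.0 with AEBSF and 139 ± 25.3 without (limma adjusted p = 0.789). Sostdc1, the closest relative of Sost, lay below the filter, and Dkk1 was not analysed here. Wif1, a secreted protein that binds Wnts, was bright and had 2992 ± 231 with AEBSF and 3073 ± 64.7 without (limma adjusted p = 0.712). The list's median log2 fold change was -0.05, against 0.002 for all genes.

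The next list held beta-catenin, which carries the Wnt signal to the nucleus, its partners and regulators, and common target genes. Of 16 tested genes 0 passed the threshold in limma, against 16.3% of all genes in either direction. At an unadjusted p under 0.05 there were 3, a count with no share of all genes to set beside it. The list's median was 0.02. Axin2, an inhibitor in the pathway that is widely used as its readout, had 120 ± 10.4 with AEBSF and 112 ± 17.1 in mineralizing cultures (log2 fold change 0.11 with an SE of 0.19 and limma adjusted p = 0.747). The beta-catenin gene Ctnnb1 had 13954 ± 713 with AEBSF and 13018 ± 374 without (log2 fold change 0.10 with an SE of 0.05 and limma adjusted p = 0.26). Ccn4, a secreted target of the pathway, had 4841 ± 146 with AEBSF and 4793 ± 81.8 without, and Tcf7, a partner of beta-catenin on DNA, had 5110 ± 266 with AEBSF and 4938 ± 292 without (limma adjusted p = 0.888 and 0.634). Each of the 16 is measured as RNA only, and protein was not measured.

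Among genes known to control Sost transcription, 2 of 18 tested fell and 0 rose, 11.1% against 9.22% of all genes. Bmp4, a bone morphogenetic protein of the family known to induce Sost, had 1638, 1428 and 1422 in AEBSF cultures 1, 2 and 3, against 2094, 2017 and 2070 in mineralizing cultures 1, 2 and 3. It fell 1.38-fold (log2 fold change -0.46 with an SE of 0.07 and limma adjusted p = 0.00131), with no overlap between the groups. Sik3, a kinase that holds class IIa histone deacetylases in the cytoplasm, fell 1.22-fold (log2 fold change -0.29 with an SE of 0.08 and limma adjusted p = 0.0322). Its second probe set gave 0.25 (limma adjusted p = 0.359), and the call was lost without mineralizing culture 1 or 2 (limma adjusted p = 0.136 and 0.0958) and without AEBSF culture 1 or 2 (0.0981 and 0.0585). Averaged over both probe sets, Sik3 had a log2 fold change of -0.02 and did not pass (limma adjusted p = 0.909).

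Mef2 factors bind a distal enhancer of Sost. The brightest probe set of Mef2c had 7450 ± 73.4 with AEBSF and 7542 ± 157 in mineralizing cultures (log2 fold change -0.02 with an SE of 0.05 and limma adjusted p = 0.852), and a second one fell by 0.21 on the log2 scale (limma adjusted p = 0.0343). Mef2a was read by 4 probe sets: the brightest gave -0.06 on that scale (limma adjusted p = 0.549), 1 other fell by 0.36 (limma adjusted p = 0.00526), and the remaining 2 did not pass (-0.25 and -0.24). Averaged over its probe sets, Mef2a passed (log2 fold change -0.23, limma adjusted p = 0.0247). Mef2d had a log2 fold change of 0.12 and Hdac5, a class IIa histone deacetylase that represses Mef2, of 0.09 (limma adjusted p = 0.435 and 0.627). Pth1r, the receptor of parathyroid hormone, a hormone that lowers Sost, had 2220 ± 175 with AEBSF and 2407 ± 27.0 without (log2 fold change -0.12 with an SE of 0.06 and limma adjusted p = 0.25). Runx2 and Sp7 were not analysed here.

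The ligand and partner receptor of Ackr3 were near the limit of the filter. Cxcl12 had 65.8 ± 19.6 with AEBSF and 73.0 ± 12.8 in mineralizing cultures, and Cxcr4, the signalling receptor of Cxcl12, had 76.9 ± 11.4 with AEBSF and 78.2 ± 7.56 without (limma adjusted p = 0.728 and 0.952). Of 10 tested genes of this axis 1 fell and 0 rose, 10% against 9.22% of all genes. The gene that fell was Penk, the precursor of enkephalins, opioid peptides that ACKR3 also takes up. It had 591, 737 and 576 in AEBSF cultures 1, 2 and 3, against 907, 787 and 843 in mineralizing cultures 1, 2 and 3 (log2 fold change -0.42 with an SE of 0.10 and limma adjusted p = 0.0194). The groups did not overlap, but the call was lost without mineralizing culture 1 or 3 (limma adjusted p = 0.0855 and 0.0558) and without AEBSF culture 1 or 3 (0.0637 and 0.0524). Arrb1 and Arrb2, the beta-arrestins through which the receptor acts, had log2 fold changes of 0.30 and 0.11 (limma adjusted p = 0.248 and 0.48).

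Irx5 had few measurable relatives. Irx1, Irx2 and Irx4 lay below the filter and Irx6 was not analysed here, which left Irx3, with 663 ± 78.9 with AEBSF and 688 ± 26.8 in mineralizing cultures (log2 fold change -0.06 with an SE of 0.09 and limma adjusted p = 0.727). Its second tested probe set gave 0.05. Fto, a demethylase gene that lies near Irx3 and Irx5, had 1070 ± 45.8 with AEBSF and 1084 ± 44.5 without (log2 fold change -0.02 with an SE of 0.07 and limma adjusted p = 0.88). The difference between Irx5 and Irx3 was not tested.

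Of the 11 tested genes of the Iroquois family, neighbours of Irx5 and transcription factors of bone and limb, 2 fell and 1 rose, 27.3% in either direction against 16.3% of all genes. None of these called genes belongs to the Iroquois family. The list was written with earlier results of these arrays known, so its count is not independent evidence. Meis1, a homeobox partner of Hox proteins, gave 259, 283 and 294 in AEBSF cultures 1, 2 and 3, against 382, 405 and 397 in mineralizing cultures 1, 2 and 3 (log2 fold change -0.50 with an SE of 0.11 and limma adjusted p = 0.0101). The groups of Meis1 did not overlap, and its call was kept in all 17 alternatives run. Tshz2, a zinc finger factor, had 415 ± 27.7 with AEBSF and 521 ± 22.1 without (log2 fold change -0.33 with an SE of 0.09 and limma adjusted p = 0.0363). Gata4, a zinc finger factor and no homeobox gene, rose to 179 ± 17.2 with AEBSF, against 122 ± 7.52 without (log2 fold change 0.55 with an SE of 0.16 and limma adjusted p = 0.0419), and its second probe set had 0.21 (limma adjusted p = 0.556). The Tshz2 call was lost without mineralizing culture 1, 2 or 3 (limma adjusted p = 0.128, 0.114 and 0.0605) and AEBSF culture 2 or 3 (0.073 and 0.0819). The Gata4 call was lost without each array other than AEBSF culture 2 (limma adjusted p from 0.0889 to 0.117) and with scaling to hybridization controls (0.182).

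Among other genes associated with osteocytes, 4 of 11 tested fell and 0 rose, 36.4% against 9.22% of all genes, with a median log2 fold change of -0.35. Values on the list ranged from -0.81 to 0.34. This list was written with earlier results of these arrays known, so its count is not independent evidence. Ptprz1, a receptor tyrosine phosphatase, gave 206, 228 and 212 in AEBSF cultures 1, 2 and 3, against 337, 379 and 418 in mineralizing cultures 1, 2 and 3, and fell 1.75-fold (log2 fold change -0.81 with an SE of 0.12 and limma adjusted p = 0.00177). Tnfsf11, which encodes RANKL, the osteoclast-inducing cytokine that osteocytes make, gave 140, 135 and 131 with AEBSF, against 214, 227 and 196 in mineralizing cultures. Both of its probe sets fell, with log2 fold changes of -0.65 and -0.62 (limma adjusted p = 0.0145 and 0.0436), although the call of the brightest was lost without mineralizing culture 1 or 2 (0.0571 and 0.0683).

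Gja1, which encodes connexin 43, the channel protein joining osteocyte processes, fell 1.17-fold, to 6075 ± 201 with AEBSF, against 7119 ± 157 in mineralizing cultures (log2 fold change -0.23 with an SE of 0.05 and limma adjusted p = 0.0134). Its second tested probe set fell by 0.46 on the log2 scale (limma adjusted p = 0.00201), and the call of the brightest was lost without mineralizing culture 1 (0.0531) and without AEBSF culture 1 (0.0515). Phex, an endopeptidase of osteoblasts and osteocytes that is needed for phosphate balance, fell with a log2 fold change of -0.73 (SE 0.06, limma adjusted p = 3.36e-05). The count of 4 became 2 without mineralizing culture 1, where Tnfsf11 and Gja1 were lost.

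**Figure D3:**
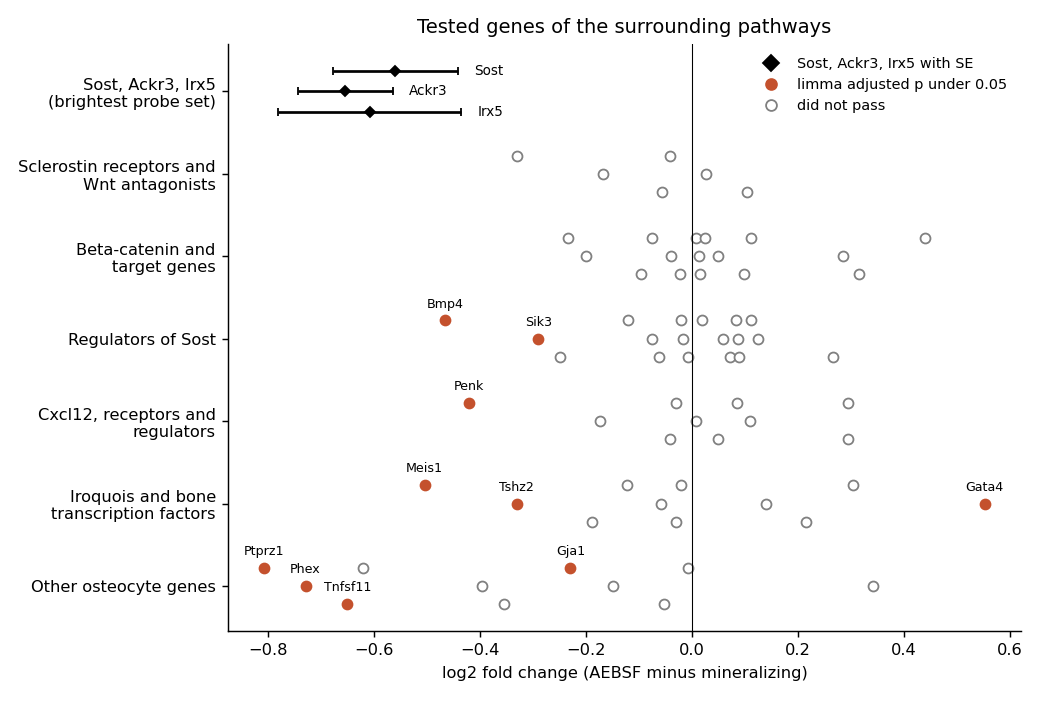
Log2 fold change (AEBSF minus mineralizing) of the tested genes of 6 lists, 1 point per gene, filled where the limma adjusted p was under 0.05, with Sost, Ackr3 and Irx5 and their standard errors in the top row. Points of the Wnt lists lie around 0 with none filled, and the filled points of the osteocyte list lie between -0.81 and -0.23.

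Of 17 osteocyte genes with a probe set, 11 passed the filter, Phex and Gja1 among the brighter ones, and 6 did not. Dmp1, a matrix phosphoprotein, Mepe, a matrix protein of late osteocytes, and Fgf23, the phosphate hormone, were among the 6 below it. Dmp1 gave 56.1, 43.0 and 47.1 in AEBSF cultures 1, 2 and 3, against 79.1, 66.3 and 62.5 in mineralizing cultures 1, 2 and 3, and was not tested. Mepe, not tested either, had a log2 fold change in the other direction, 0.23. Its signals overlapped: 31.3, 83.2 and 9.55 in AEBSF cultures 1, 2 and 3, against 42.7, 21.3 and 16.8 in mineralizing cultures 1, 2 and 3. Over the whole array, 9864 of 14217 genes passed the filter, so nothing particular to osteocyte genes is read from the count of 11 of 17. The label of the 3 genes as osteocyte-associated was given beforehand and was not tested here.

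Osteoblast markers were present: 8 of the 9 with a probe set passed the filter, and 2 of 8 fell (25% against 9.22% of all genes), the type I collagen chains Col1a1 and Col1a2. The osteoblast list was also written with earlier results of these arrays known, so its count is not independent evidence. Of 17 measured markers of macrophages and osteoclasts, endothelium, adipocytes, cartilage and muscle, 14 lay below the filter. The 3 tested ones, Csf1r, Acan and Des, did not pass in limma (0 of 3, against 16.3% of all genes, and 0 at an unadjusted p under 0.05). Their summed signal over all 17 ranged from 555 to 746 with AEBSF and from 664 to 733 in mineralizing cultures, so the ranges overlapped. Their part in the lower Ackr3 signal, a gene that endothelium also expresses, was not tested.

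In their brightest probe sets, the differences of the 3 genes held their sign under the alternatives run. For Ackr3 the log2 fold change lay between -0.80 and -0.58 over other scalings, added constants and arrays left out. For Sost it lay between -0.71 and -0.45 in the brightest probe set, with the smallest difference without mineralizing culture 1. The mean of both Sost probe sets gave -0.79, but it takes in the second one, which lay below the filter. The log2 fold change of that probe set rested on AEBSF culture 3, so nothing is read from this mean. For Irx5 the log2 fold change lay between -0.75 and -0.40, and the mean of both probe sets gave -0.37.

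**Figure D4:**
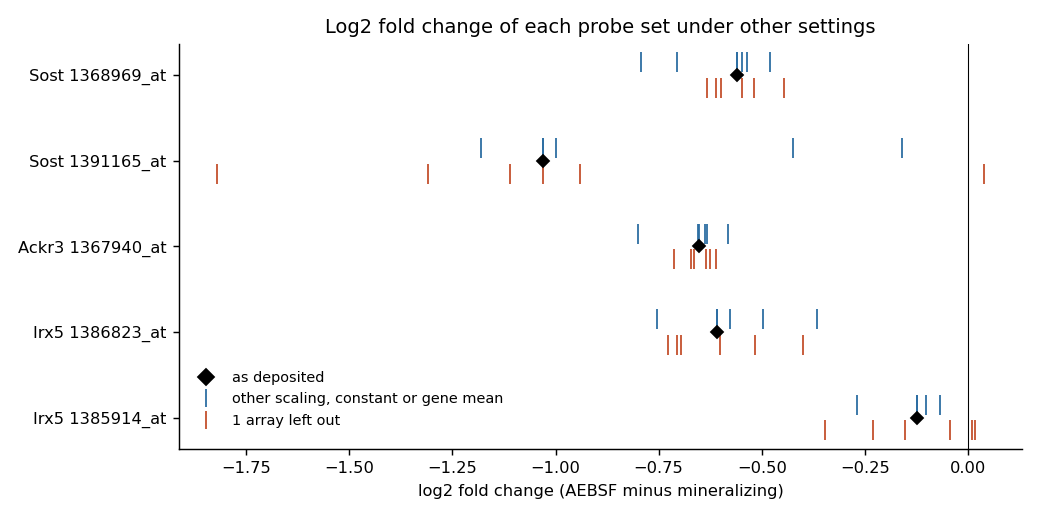
Log2 fold change (AEBSF minus mineralizing) of each of the 5 probe sets as deposited (diamond), under other scalings, added constants or averaged over both probe sets (blue bars), and with 1 array left out (orange bars). With the brightest probe set alone, Sost, Ackr3 and Irx5 stay between -0.80 and -0.40, and the mean over both Irx5 probe sets lies at -0.37, while the second Sost probe set ranges from -1.82 to 0.04.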

How the data were processed

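RNA of 6 cultures was hybridised to 1 array each, and groups were taken from the sample titles. Each probe set has 1 deposited intensity per array. Per the submitters' processing notes these are MAS5 signals from GCOS; the sources used here do not state versions or detection calls. Trimmed by 2% at either end, the array means were 500.15 to 500.16, read from the values. Names came from the platform annotation, with symbols updated through RefSeq (GRCr8).

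Log2 signals, with no constant added, were tested in R 4.3.3 with limma 3.58.1 (variance prior following the signal, Benjamini-Hochberg adjustment, threshold 0.05) over the 18625 probe sets above the 40th percentile of mean signal. A gene is its brightest probe set. The fit was tested on simulated data.

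The 3 genes and the 8 gene lists (139 genes, of which 81 were tested, 39 lay below the filter and 19 were not analysed here) were chosen with earlier results of these data known. Named are the 3 genes, up to 6 called members per list (up to 3 bright uncalled ones where fewer than 2 passed), genes fixed by name, and the 4 nearest genes to each. The number of arrays limits the precision. Alternatives were other scalings, constants, filters, variance priors, a replicate block, the mean of probe sets and each array left out.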

Additional observations from a re-analysis of the deposited data

How the results depend on the processing

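Without 1 array, between 1203 and 2257 probe sets and between 790 and 1460 genes passed, against 2495 and 1608 with all 6. With a constant variance prior 885 probe sets and 544 genes passed. Replicate numbers did not pair the cultures (correlations of same-numbered deviations were 0.0109, -0.119 and -0.0359), and with a replicate block 1802 probe sets passed. With the block and with no filter, 1 gene of the Iroquois list and 1 regulator of Sost passed, against 3 and 2. With a constant variance prior 1 regulator of Sost and 0 genes of the Cxcl12 axis passed. The calls of Sik3, Tshz2 and Gata4 were lost with the block (limma adjusted p = 0.0686, 0.0574 and 0.0794) and with no filter (0.0526, 0.052 and 0.0839), that of Gata4 also with median centring (0.0524) and the mean of its probe sets (0.13), and those of Sik3, Penk, Tshz2 and Gja1 with a constant variance prior (0.0944, 0.0893, 0.0662 and 0.093). Scaling to hybridization controls gave 1 call in the list of Wnt antagonists and 1 in the beta-catenin list, and a log2 fold change of -0.80 for Ackr3. The mean of both Sost probe sets gave -0.794, a value that takes in the dim probe set below the filter. With 1 array left out, the counts of calls were 0 to 1 for the beta-catenin list and the Cxcl12 axis, 1 to 2 for the Iroquois list and the regulators of Sost, and 2 to 5 for other osteocyte genes. Of 18 named genes outside the 3 that passed, 9 did so in every alternative run and 9 lost the call in at least 1; of 31 that had not passed, 4 did so in at least 1. The cause of these changes was not tested. Dim probe sets, such as the second ones of Sost and Irx5, limit what can be read at low signal.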
